A study of Paxillus involutus with 25 samples.

Results

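In mycelium of the ectomycorrhizal fungus Paxillus involutus, 46 of 18032 genes met a rule for a low mean level with K-vermiculite. The rule asks, among other conditions, for a mean at least 1.5-fold below that on either mineral-free control medium. The 46 genes were chosen from measured values, so their low level with K-vermiculite is the choice itself and is given only as a description. Counts were divided by the library's total and multiplied by 1000000, a unit abbreviated CPM, and 0.5 was added to each group mean. A gene was taken when the higher control mean was at least 5, the 2 control means were within a factor of 2 of each other, and the K-vermiculite mean was at most the lower control mean divided by 1.5. Of all genes, 9449 met the conditions on level and on the controls, and 0.487% of those were lowered this far. Under the mirrored rule, 32 genes were raised.

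The study asked how this fungus draws potassium from sheet silicates. All cultures were strain ATCC 200175, grown in the dark at 25 °C for 21 days on cellophane laid over agar, and RNA came from harvested mycelium. There were 5 groups of 5 cultures, which the labels call biological replicates. Of these, 3 groups carried mineral flakes of K-vermiculite, phlogopite or muscovite on K-depleted MMN agar. The controls without mineral were complete MMN agar and K-depleted MMN agar, so every mineral culture shares the K-depleted agar. K-depleted agar was made without KH2PO4, which supplies phosphate as well as potassium, and the effects of these nutrients cannot be told apart in a comparison with complete medium.

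Ectomycorrhizal fungi sheathe the fine roots of trees and pass mineral nutrients to the host in return for sugars. Potassium is the main cation of the fungal cytoplasm, where it balances charge and maintains turgor, and it enters hyphae through transporters and channels of the plasma membrane. Muscovite, an aluminium mica, and phlogopite, a magnesium mica, hold potassium between their silicate layers, and hyphae can release it with protons and organic acids. Vermiculite is a related sheet silicate whose interlayer cations are more readily exchanged.

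Neither the count table nor the reference gives a product name for any of the 46 genes, so they are called by their identifiers and no role is assigned. All 46 are protein-coding in the reference annotation of this strain, and all passed the filter on low counts, together with 12698 other genes. Libraries held 21035680 to 41217502 counts, and the lowest count of any of the 46 genes in any library was 29. Correlations of log2 CPM between replicates were 0.986 to 0.996. CPM is not corrected for transcript length, so levels are compared between cultures for 1 gene and not between genes. These are bulk libraries, in which fewer hyphae of a kind and less RNA per hypha cannot be told apart.

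The 46 genes ranged in mean level over the control cultures from 4.87 to 524 CPM, with a median of 41.2 CPM, close to the 41.9 CPM of the 9449 genes eligible for the choice. Together they took 0.201% to 0.232% of a library with K-vermiculite. The summed share was 0.315% to 0.409% with phlogopite and 0.309% to 0.360% with muscovite, against 0.382% to 0.443% on complete medium and 0.344% to 0.564% on K-depleted medium. The K-vermiculite shares lay below those of all other cultures, the genes having been chosen for it, and muscovite shares overlapped those on K-depleted medium but not those on complete medium. The median over the genes of the mean level was 21.0 CPM with K-vermiculite, 34.3 CPM with phlogopite, 31.5 CPM with muscovite, 43.4 CPM with complete agar and 35.7 CPM with K-depleted agar.

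**Figure D1:**
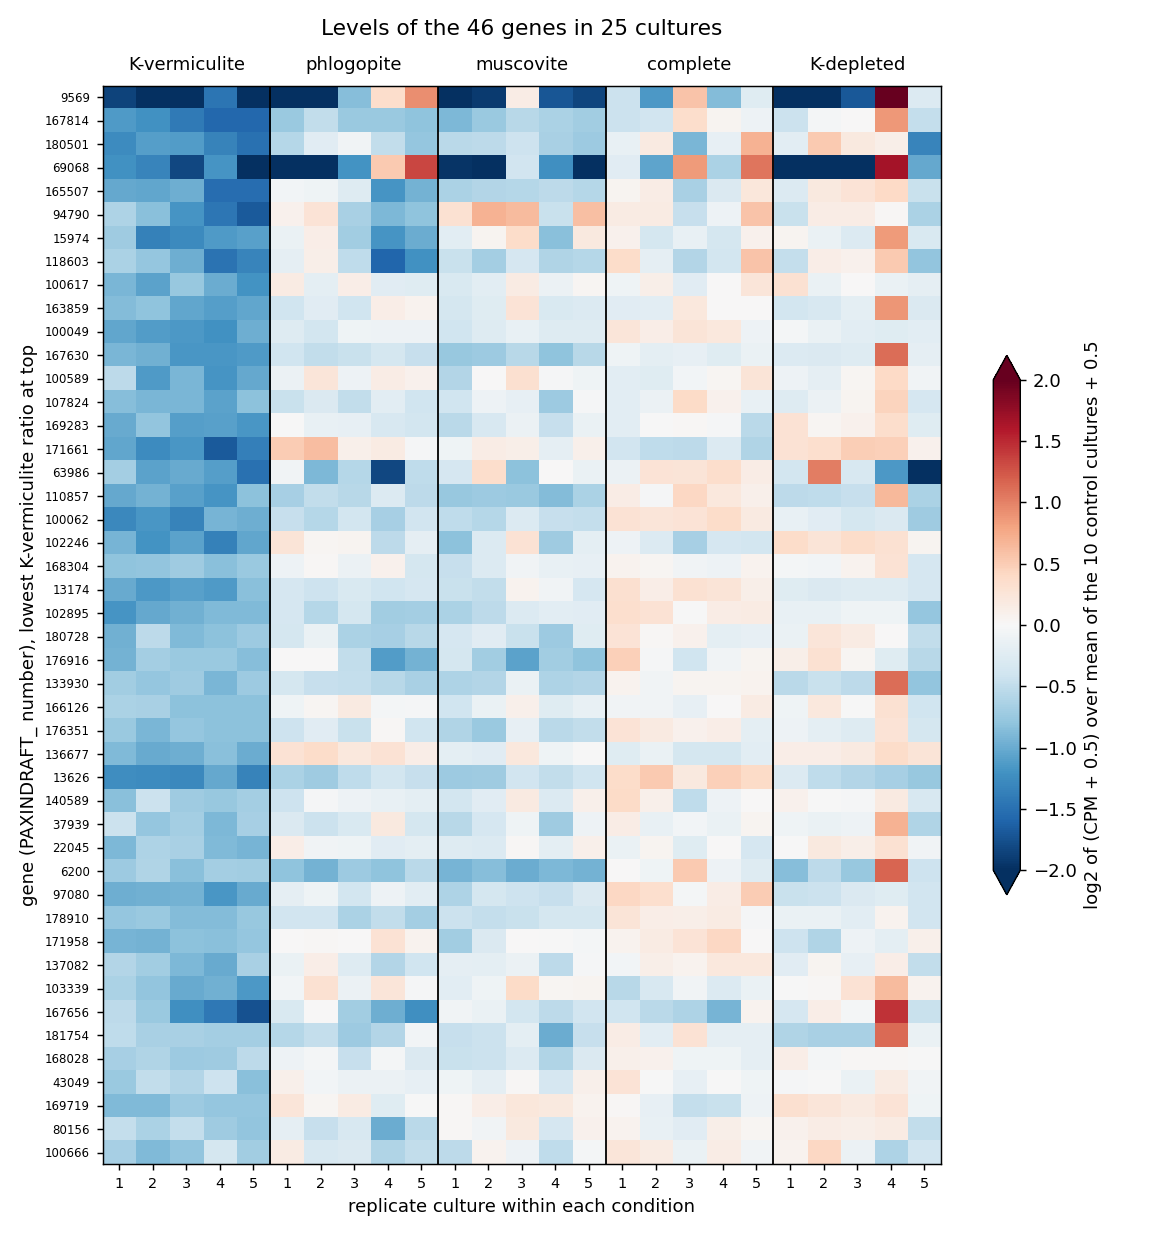
Levels of the 46 genes (rows, identifier numbers without their prefix) in each of the 25 cultures (columns, by group), as log2 of CPM plus 0.5 relative to the gene's mean over the control cultures plus 0.5, with colours cut at 2 in either direction. The 5 K-vermiculite columns are low throughout, phlogopite and muscovite columns are mixed, and K-depleted culture 4 carries the highest values of its group in 29 rows.

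Relative to the lower control mean, K-vermiculite levels ran from 0.315 (PAXINDRAFT_9569) to 0.667 (PAXINDRAFT_100666), with a median of 0.592, and 5 genes were at or below 0.5. Just inside the limit stood PAXINDRAFT_169719 at 0.665, PAXINDRAFT_80156 at 0.665 and PAXINDRAFT_100666 at 0.667. Just outside stood PAXINDRAFT_117216 at 0.668, PAXINDRAFT_167870 at 0.670 and PAXINDRAFT_171872 at 0.671. The choice used group means, and the cultures were not always separate. For 32 of the 46 genes all 5 K-vermiculite values lay below all 10 control values, where 2.87% of tested genes did so, a share the choice itself raises. The other 14 genes overlapped with at least 1 control culture. For 24 genes the K-vermiculite values lay below those of all 20 other cultures, against 1.27% of tested genes.

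Several genes were low with K-vermiculite while muscovite and phlogopite cultures largely stood among the controls. With K-vermiculite, PAXINDRAFT_100617 was at 10.6, 9.53, 12.04, 10.1 and 8.69 CPM in cultures 1 to 5, while complete agar gave 19.5, 22.3, 17.5, 20.6 and 24.4 CPM and K-depleted agar 25.5, 18.7, 20.7, 18.6 and 18.1 CPM. With phlogopite it was at 23.1, 17.9, 22.7, 17.5 and 17.3 CPM, and with muscovite at 16.7, 17.7, 23.03, 18.97 and 21.2 CPM. The highest K-vermiculite value lay below the lowest of the other 20 cultures, and the mineral values overlapped with those of both controls. PAXINDRAFT_168304 had 134, 136, 144, 131 and 139.9 CPM in the K-vermiculite cultures, compared with 245, 241, 224, 218 and 246 CPM on complete and 228, 225, 247, 287 and 185 CPM on K-depleted agar. Its level was 219, 239, 216, 250.3 and 184 CPM in phlogopite cultures and 170.4, 193, 223, 211 and 209 CPM in muscovite cultures. Here too the K-vermiculite values stood below all others, in a narrow band, and phlogopite cultures spread over the range of the controls. PAXINDRAFT_163859 was at 35.9, 37.5, 31.6, 30.3 and 31.9 CPM in K-vermiculite cultures 1 to 5, against 56.1, 56.5, 76.3, 66.3 and 66.4 CPM with complete agar and 50.8, 52.6, 57.1, 121 and 53.8 CPM with K-depleted agar. The phlogopite values were 49.7, 55.9, 49.7, 72.4 and 69.3 CPM, and the muscovite values were 51.2, 55.6, 79.9, 52.8 and 54.00 CPM. The K-vermiculite values of this gene were again the lowest of all 25, while muscovite culture 3 and K-depleted culture 4 stood far above the rest of their groups.

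With K-vermiculite, PAXINDRAFT_171958 was at 250.0, 249.9, 273, 267 and 279 CPM in cultures 1 to 5, while complete agar gave 501, 536, 579, 642 and 482 CPM and K-depleted agar 358, 316, 445, 418 and 516 CPM. In the micas, values were 479.9, 487, 479, 584 and 504 CPM for phlogopite and 296, 392, 484, 477 and 467 CPM for muscovite. The mean of this gene was lower on K-depleted than on complete medium, at 411 ± 77.8 and 548 ± 64.2 CPM (SD, n = 5 each), and muscovite culture 1 and K-depleted culture 2 came nearest to the K-vermiculite values. PAXINDRAFT_165507 had 257, 254, 266, 182 and 182 CPM in the K-vermiculite cultures, compared with 547, 582, 333, 431 and 614 CPM on complete and 431, 601, 633, 688 and 383 CPM on K-depleted agar. For phlogopite the 5 values were 506, 494, 440.0, 231 and 271 CPM, and for muscovite 338, 347, 353, 364 and 355 CPM. Muscovite cultures agreed closely with each other, whereas phlogopite culture 4 lay within the K-vermiculite values, culture 5 just above them, and phlogopite cultures 1 to 3 were at control level. PAXINDRAFT_180501 was at 4.68, 5.28, 5.19, 4.40 and 3.88 CPM in K-vermiculite cultures 1 to 5, against 10.6, 13.5, 6.04, 10.6 and 19.6 CPM with complete agar and 10.2, 17.2, 13.6, 12.9 and 4.44 CPM with K-depleted agar. Phlogopite cultures had 7.83, 10.1, 11.2, 8.30 and 6.77 CPM and muscovite cultures 8.05, 8.06, 8.77, 7.37 and 6.99 CPM. K-depleted culture 5 lay within the K-vermiculite values, and all other cultures lay above them.

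**Figure D2:**
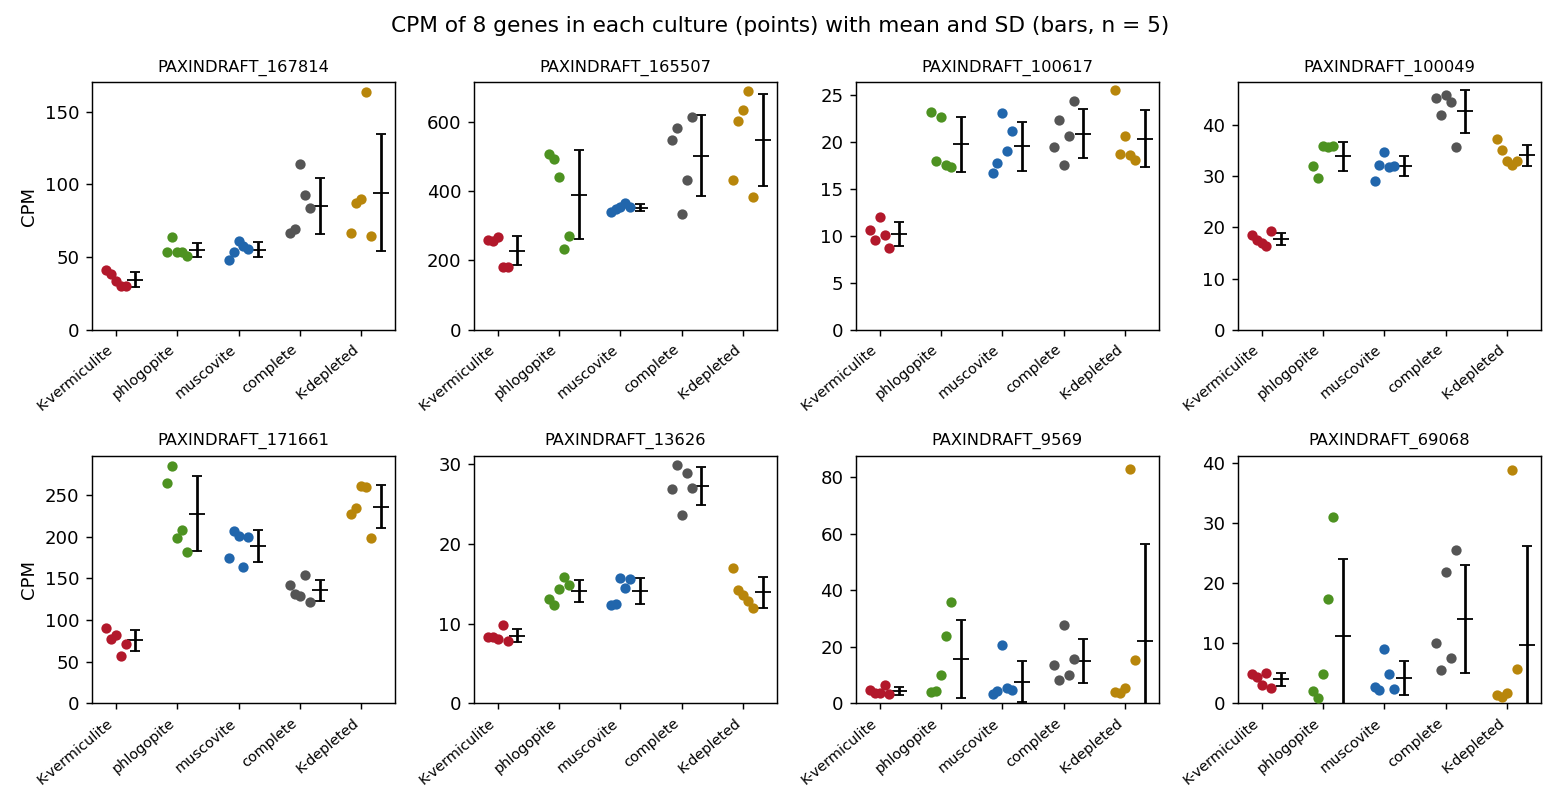
CPM in each culture (points) for 8 of the genes, with the group mean and SD (bars, cut at 0 where the SD exceeds the mean, n = 5), groups from left to right K-vermiculite, phlogopite, muscovite, complete and K-depleted medium. PAXINDRAFT_167814 is lowest with K-vermiculite, higher with both micas and highest on the controls, PAXINDRAFT_171661 is higher with both micas than on complete medium, and PAXINDRAFT_9569 and PAXINDRAFT_69068 each have 1 K-depleted culture far above the rest.

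Muscovite and phlogopite were not used in the choice. Both also had means above K-vermiculite for 45 of the 46 genes, the exception in each case being PAXINDRAFT_6200. All 5 K-vermiculite values lay below all 5 muscovite values for 31 genes, against 11.4% of tested genes, and below all 5 phlogopite values for 31 genes, against 14.7%. The genes were chosen for low K-vermiculite values, so no test is given. The median over the genes of the fitted log2 fold change was -0.69 for K-vermiculite over muscovite and -0.73 for K-vermiculite over phlogopite. Over all tested genes these medians were 0.0028 and 0.0006, and 49.6% and 49.9% of genes were below 0.

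With the micas, the genes stood nearer the controls than K-vermiculite. Relative to the lower control mean, the median level was 0.900 with phlogopite and 0.916 with muscovite. The muscovite mean lay below both control means for 32 genes, against 35% of tested genes, and the phlogopite mean for 33 genes, against 39.9%. Both mica means lay between K-vermiculite and the controls for 26 genes, against 4.06% of tested genes, and the choice of low K-vermiculite values raises that share. All muscovite values lay below all 10 control values for 4 genes, PAXINDRAFT_167814, PAXINDRAFT_167630, PAXINDRAFT_6200 and PAXINDRAFT_168028, against 0.871% of tested genes. All phlogopite values did so for 3, PAXINDRAFT_167814, PAXINDRAFT_167630 and PAXINDRAFT_178910, against 1.59%. The control cultures had served in the choice, which favours genes that are high in them. So none of these counts of mica levels below the controls is independent of it.

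**Figure D3:**
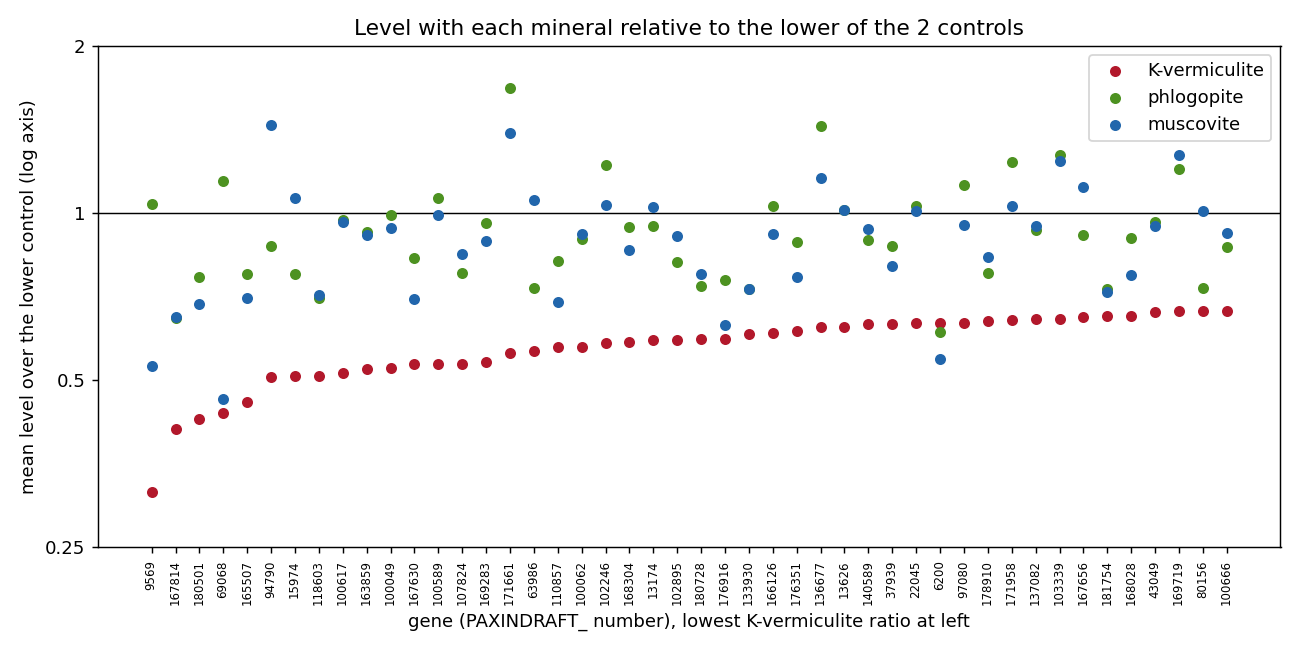
Mean level of each of the 46 genes with phlogopite and with muscovite relative to the lower of both control means (CPM plus 0.5, ratio on a log axis), beside the K-vermiculite ratio by which the genes were chosen. K-vermiculite ratios end at 0.667 by the choice, and the medians are 0.900 with phlogopite and 0.916 with muscovite.

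Against K-depleted medium, the agar on which the micas lay, 5 of the 46 genes were lower with muscovite and 3 were lower with phlogopite. The test was edgeR's quasi-likelihood F-test on 12744 genes, with Benjamini-Hochberg adjustment and a call at an adjusted p below 0.05. Over all tested genes, 3.36% were called with muscovite (1.86% lower, 1.5% higher) and 5.15% with phlogopite (2.38% lower, 2.77% higher). The K-depleted libraries had served in the choice, which favours genes that are high in them, so these counts are not independent of it. In this fit, and with DESeq2 and its own size factors, none of the 46 was called higher with either mica, while an edgeR fit with the replicate number as a block called 1 higher with phlogopite. At an unadjusted p below 0.05, 16 genes were lower and 0 higher with muscovite. Taking both directions together, that was 34.8% of the 46, against 18.5% of tested genes. With phlogopite, 13 were lower and 2 higher at that level, both directions together 32.6% of the 46, against 24% of tested genes. These shares of tested genes were not split by direction. The median log2 fold change over the genes was -0.23 with muscovite and -0.18 with phlogopite, against -0.0032 and -0.0077 over all tested genes.

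The counts shifted with single cultures. The shares of tested genes given above are from the main fit, and none was taken for the fits that follow, so these counts have no background beside them. With muscovite, 1 gene was called without muscovite culture 1, 2 or 4, 3 without muscovite culture 5 or K-depleted culture 1 or 2, 2 without K-depleted culture 3 or 4, and 10 without K-depleted culture 5. With phlogopite, 1 was called without phlogopite culture 4 or K-depleted culture 2, 3 or 4, and 8 without K-depleted culture 5. Without phlogopite culture 5, edgeR called 0 and had 9 at an unadjusted p below 0.05. PAXINDRAFT_168028 was called lower with muscovite in all 16 alternative settings of its comparison with K-depleted medium.

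Of the 46, 1 gene was called lower than both controls with both micas, against 0.251% of tested genes. With K-vermiculite, PAXINDRAFT_167814 was at 40.8, 38.5, 33.3, 29.9 and 29.8 CPM in cultures 1 to 5, while complete agar gave 66.3, 68.95, 114, 92.9 and 83.5 CPM and K-depleted agar 66.2, 87.02, 90.05, 163 and 64.3 CPM. With phlogopite it was at 53.1, 63.7, 53.1, 53.6 and 50.9 CPM, and with muscovite at 47.9, 53.5, 61.00, 57.7 and 55.5 CPM. The 25 values fell into 3 separate bands, K-vermiculite lowest, the micas above it and the controls highest. Against K-depleted medium it fell with muscovite (log2 change -0.76 with SE 0.20, edgeR adjusted p 0.0412) and with phlogopite (log2 change -0.76 with SE 0.20, edgeR adjusted p 0.037). Against complete medium it fell with muscovite (log2 change -0.51 with SE 0.20, edgeR adjusted p 0.0324) and with phlogopite (log2 change -0.50 with SE 0.20, edgeR adjusted p 0.0318). K-depleted culture 4 was the highest of its group, and without it the log2 fold changes against K-depleted medium were -0.46 and -0.45, with edgeR adjusted p of 0.0987 for muscovite and 0.0696 for phlogopite. The muscovite call against K-depleted medium also ended without any 1 muscovite culture or K-depleted culture 2 or 3 (edgeR adjusted p 0.053 to 0.092), and the phlogopite call without phlogopite culture 3, 4 or 5 or K-depleted culture 2 or 3 (0.0664 to 0.109). The muscovite call against complete medium ended without muscovite culture 1, 2 or 5 or complete-medium culture 3 or 4 (0.0508 to 0.114), and the phlogopite call without phlogopite culture 1, 3, 4 or 5 or complete-medium culture 3 or 4 (0.0509 to 0.113).

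PAXINDRAFT_167630 had 69.4, 66.6, 58.05, 58.1 and 59.2 CPM in the K-vermiculite cultures, compared with 123, 114, 117, 111 and 119.5 CPM on complete and 108, 107, 109.6, 284 and 115 CPM on K-depleted agar. Its level was 99.5, 93.2, 95.7, 102 and 94.6 CPM in phlogopite cultures and 76.97, 78.7, 89.2, 75.1 and 88.6 CPM in muscovite cultures. K-depleted culture 4 was more than 2 times the next highest value, and even without it the K-vermiculite, muscovite, phlogopite and control values formed 4 bands with no overlap. Against K-depleted medium the muscovite change was called (log2 change -0.81 with SE 0.20, edgeR adjusted p 0.0255), and the phlogopite value was -0.55 (SE 0.20, edgeR adjusted p 0.0936). The muscovite call ended without muscovite culture 1, 2 or 4, at edgeR adjusted p of 0.0603, 0.0578 and 0.0677, and without K-depleted culture 4 the log2 change was -0.40 (edgeR adjusted p 0.000335). Phlogopite over muscovite differed by 0.26 on the log2 scale (95% interval -0.13 to 0.64) and did not pass the test, although the values did not overlap. The error in the fit is 1 value per gene over all groups and includes the spread of the K-depleted cultures. A fit of the phlogopite and muscovite cultures alone called 0 of the chosen genes between the micas. At an unadjusted p below 0.05 in edgeR, that fit had 10 of the chosen genes, against 7 in the main fit. The missing adjusted call there is thus not particular to PAXINDRAFT_167630, and the gene's own estimate in that fit is not given. Whether the K-depleted spread bears on the missing call for PAXINDRAFT_167630 in the main fit was not tested.

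PAXINDRAFT_168028 was at 57.03, 59.7, 55.1, 55.2 and 63.5 CPM in K-vermiculite cultures 1 to 5, against 98.1, 96.9, 85.8, 85.3 and 80.00 CPM with complete agar and 100.4, 88.7, 92.6, 92.6 and 90.3 CPM with K-depleted agar. The phlogopite values were 84.5, 88.9, 65.8, 88.3 and 74.4 CPM, and the muscovite values were 66.6, 67.7, 74.97, 60.02 and 74.7 CPM. All muscovite values lay below all control values, while phlogopite values overlapped with both. It fell with muscovite against K-depleted medium (log2 change -0.41 with SE 0.075, edgeR adjusted p 0.0014) and against complete medium (log2 change -0.26 with SE 0.075, edgeR adjusted p 0.00405). With K-vermiculite, PAXINDRAFT_178910 was at 21.8, 22.3, 20.3, 20.3 and 22.1 CPM in cultures 1 to 5, while complete agar gave 45.02, 41.3, 40.6, 41.9 and 37.03 CPM and K-depleted agar 34.2, 33.9, 32.4, 39.4 and 28.7 CPM. In the micas, values were 28.5, 28.6, 23.9, 26.6 and 23.3 CPM for phlogopite and 27.5, 26.8, 27.5, 29.2 and 29.3 CPM for muscovite. Phlogopite values all lay below the controls, by a small margin to K-depleted culture 5. It fell with phlogopite against K-depleted medium (log2 change -0.34 with SE 0.076, edgeR adjusted p 0.0163), a call that ended without phlogopite culture 5 at an edgeR adjusted p of 0.0667. It also fell against complete medium with phlogopite (log2 change -0.52 with SE 0.076, edgeR adjusted p 8.9e-07) and with muscovite (log2 change -0.43 with SE 0.076, edgeR adjusted p 1.68e-05).

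PAXINDRAFT_80156 had 58.8, 52.9, 58.8, 50.1 and 47.3 CPM in the K-vermiculite cultures, compared with 86.4, 74.1, 70.4, 88.8 and 84.2 CPM on complete and 87.03, 91.2, 89.4, 91.6 and 58.05 CPM on K-depleted agar. For phlogopite the 5 values were 72.7, 59.7, 65.4, 41.02 and 56.5 CPM, and for muscovite 83.2, 78.1, 94.01, 64.8 and 86.9 CPM. Phlogopite cultures overlapped with K-vermiculite cultures, and muscovite cultures stood mostly within the control range. It fell with phlogopite against K-depleted medium (log2 change -0.48 with SE 0.13, edgeR adjusted p 0.0404), and that call ended without phlogopite culture 4 or 5 or any of K-depleted cultures 1 to 4, at edgeR adjusted p of 0.0765 to 0.129. Against complete medium it also fell with phlogopite (log2 change -0.33 with SE 0.13, edgeR adjusted p 0.0325), and that call ended without phlogopite culture 2, 4 or 5 or complete-medium culture 1, 4 or 5, at edgeR adjusted p of 0.0526 to 0.108. PAXINDRAFT_169283, named here after its values were seen, averaged 59.4 ± 7.77 CPM with muscovite against 79.8 ± 12.6 CPM on K-depleted medium (SD, n = 5 each). It was called lower with muscovite (log2 change -0.41 with SE 0.12, edgeR adjusted p 0.0496), close to the threshold, and 10 of 16 alternative settings ended the call, among them leaving out muscovite culture 1, 2 or 4 or K-depleted culture 1, 2, 3 or 4.

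Against complete medium, 18 of the 46 genes were called with muscovite, 14 lower and 4 higher, and 17 with phlogopite, 12 lower and 5 higher. Over all tested genes, 65.5% were called with muscovite (33.4% lower, 32.1% higher) and 68.1% with phlogopite (34.6% lower, 33.5% higher). Of the 46, 11 were lower with both micas, against 30.2% of tested genes, and 4 were higher with both, against 29%. These comparisons use the complete-medium libraries, which the choice used, and the choice keeps genes whose control means are close. The median log2 fold change was -0.23 with each mica, and -0.35 with muscovite and -0.36 with phlogopite when libraries were scaled by their totals, a scaling that moved the median of all tested genes to -0.14 in both comparisons.

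The 11 genes lower with both micas include PAXINDRAFT_13626. PAXINDRAFT_13626 stood at 8.37, 8.30, 8.10, 9.88 and 7.81 CPM in K-vermiculite cultures 1 to 5, against 26.8, 29.9, 23.7, 28.9 and 27.1 CPM with complete agar and 16.97, 14.3, 13.6, 12.9 and 11.9 CPM with K-depleted agar. Phlogopite cultures had 13.1, 12.4, 14.3, 15.9 and 14.8 CPM and muscovite cultures 12.3, 12.4, 15.7, 14.5 and 15.5 CPM. Mica values overlapped with K-depleted values and lay below all complete-medium values, while K-vermiculite values lay below all others. Against complete medium it fell with muscovite (log2 change -0.83 with SE 0.10, edgeR adjusted p 2.32e-08) and with phlogopite (log2 change -0.82 with SE 0.10, edgeR adjusted p 2.41e-08). With K-vermiculite, PAXINDRAFT_100062 was at 32.1, 35.3, 31.3, 41.4 and 40.2 CPM in cultures 1 to 5, while complete agar gave 96.7, 93.8, 96.2, 103 and 90.01 CPM and K-depleted agar 71.9, 67.98, 62.1, 65.1 and 48.4 CPM. With phlogopite it was at 57.9, 53.3, 61.5, 50.1 and 60.5 CPM, and with muscovite at 55.8, 53.1, 65.5, 57.5 and 56.8 CPM. The bands were the same, with complete medium highest, the micas among the K-depleted values and K-vermiculite lowest, and the fall was called with muscovite (log2 change -0.61 with SE 0.086, edgeR adjusted p 5.7e-07) and with phlogopite (log2 change -0.63 with SE 0.086, edgeR adjusted p 2.92e-07).

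PAXINDRAFT_6200 had 33.6, 36.7, 31.3, 34.8 and 34.4 CPM in the K-vermiculite cultures, compared with 56.6, 52.7, 81.1, 52.4 and 46.9 CPM on complete and 30.8, 38.7, 33.1, 126 and 41.9 CPM on K-depleted agar. Its level was 31.9, 28.9, 33.5, 31.7 and 38.6 CPM in phlogopite cultures and 29.1, 30.8, 27.97, 29.9 and 28.99 CPM in muscovite cultures. K-depleted culture 1 lay below all K-vermiculite values and culture 3 among them, culture 4 stood far above the rest of its group, and all muscovite values lay just below all K-vermiculite values. Against complete medium it fell with muscovite (log2 change -0.86 with SE 0.28, edgeR adjusted p 0.0113) and with phlogopite (log2 change -0.69 with SE 0.28, edgeR adjusted p 0.036). The phlogopite call ended without phlogopite culture 1, 2, 3 or 4 or complete-medium culture 1 or 3, at edgeR adjusted p of 0.0514 to 0.113. PAXINDRAFT_110857 was at 66.01, 70.05, 63.2, 59.4 and 76.3 CPM in K-vermiculite cultures 1 to 5, against 150.2, 134, 181, 157 and 146 CPM with complete agar and 94.4, 94.8, 98.04, 211 and 86.98 CPM with K-depleted agar. The phlogopite values were 85.7, 96.1, 91.8, 112 and 93.5 CPM, and the muscovite values were 80.2, 81.9, 81.1, 74.2 and 87.1 CPM. Again K-depleted culture 4 stood apart, and the mica values were below all complete-medium values (muscovite log2 change -0.80 with SE 0.18, edgeR adjusted p 0.000445, phlogopite log2 change -0.55 with SE 0.18, edgeR adjusted p 0.00918). With K-vermiculite, PAXINDRAFT_176916 was at 253, 303, 291, 290.1 and 268 CPM in cultures 1 to 5, while complete agar gave 676, 479, 366, 462 and 503 CPM and K-depleted agar 528, 598, 499.5, 411 and 332 CPM. In the micas, values were 486, 488, 346, 225 and 252 CPM for phlogopite and 382, 299, 230.5, 299.7 and 277 CPM for muscovite. The muscovite change was called (log2 change -0.62 with SE 0.20, edgeR adjusted p 0.0106), and with phlogopite, where cultures 4 and 5 were low and cultures 1 and 2 high, the value was -0.34 (SE 0.20, edgeR adjusted p 0.137).

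Conversely, 4 of the genes were higher with both micas than on complete medium. PAXINDRAFT_171661 had 90.1, 77.05, 82.6, 57.4 and 71.7 CPM in the K-vermiculite cultures, compared with 142, 131, 129, 154 and 122 CPM on complete and 227, 234, 260.4, 259 and 198 CPM on K-depleted agar. For phlogopite the 5 values were 264, 285, 198, 208 and 182 CPM, and for muscovite 175, 207, 201, 163 and 200.3 CPM. Mica values lay above all complete-medium values and in or near the K-depleted range, and K-vermiculite values lay below all complete-medium values. The change over complete medium was called with muscovite (log2 change 0.60 with SE 0.12, edgeR adjusted p 0.00011) and with phlogopite (log2 change 0.88 with SE 0.12, edgeR adjusted p 5.97e-07). PAXINDRAFT_103339 was at 9.40, 8.45, 7.16, 7.37 and 6.45 CPM in K-vermiculite cultures 1 to 5, against 9.94, 11.9, 14.1, 12.2 and 13.5 CPM with complete agar and 14.8, 15.1, 18.4, 23.3 and 15.7 CPM with K-depleted agar. Phlogopite cultures had 14.3, 18.6, 13.7, 17.8 and 14.7 CPM and muscovite cultures 12.7, 14.03, 19.5, 15.3 and 15.5 CPM. The micas overlapped with both controls, and the K-vermiculite values lay below all others. It was higher than on complete medium with muscovite (log2 change 0.45 with SE 0.14, edgeR adjusted p 0.00512) and with phlogopite (log2 change 0.49 with SE 0.14, edgeR adjusted p 0.00212).

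With K-vermiculite, PAXINDRAFT_136677 was at 83.8, 77.2, 78.7, 86.4 and 77.8 CPM in cultures 1 to 5, while complete agar gave 131, 142, 121, 121 and 134 CPM and K-depleted agar 170.3, 171, 176, 201 and 187 CPM. With phlogopite it was at 189.7, 200.0, 180.4, 190.2 and 171 CPM, and with muscovite at 136, 133, 181, 147 and 155 CPM. This was the 1 gene of the 46 called between the micas, and no mica library had served in the choice. The error in the fit is shared over all 25 libraries, however, and 15 of those had served in the choice. PAXINDRAFT_136677 was higher with phlogopite than with muscovite (log2 change 0.32 with SE 0.070, edgeR adjusted p 0.0107), with an overlap at muscovite culture 3. Between the micas 4.15% of tested genes were called (1.94% higher, 2.21% lower). Against complete medium it was higher with phlogopite (log2 change 0.65 with SE 0.071, edgeR adjusted p 5.61e-09) and with muscovite (log2 change 0.33 with SE 0.070, edgeR adjusted p 0.00018), and against K-depleted medium it was lower with muscovite (log2 change -0.25 with SE 0.070, edgeR adjusted p 0.0462). The last of these calls ended in 12 of 16 alternative settings, among them leaving out any of muscovite cultures 1, 2, 4 and 5 or K-depleted cultures 1, 3, 4 and 5. The call between the micas ended only in a fit of those 2 groups alone, at an edgeR adjusted p of 0.0615.

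For the other 45 genes, phlogopite and muscovite did not differ past the threshold, which does not show that they act alike. At an unadjusted p below 0.05, 5 genes were higher and 2 lower with phlogopite, 15.2% of the 46, against 20.6% of tested genes. The median log2 fold change of the 46 was 0.039, with a median SE of 0.135, and the 95% interval lay within 1.5-fold in either direction for 33 genes and reached past it for 13. The lowest value was that of PAXINDRAFT_94790, at -0.73 (95% interval -1.26 to -0.20, edgeR adjusted p 0.132). PAXINDRAFT_80156 was at -0.46 (-0.71 to -0.20, edgeR adjusted p 0.0509). The highest were PAXINDRAFT_69068 at 1.40 (-0.42 to 3.22) and PAXINDRAFT_9569 at 1.02 (-0.56 to 2.60), whose wide intervals include 0. Without muscovite culture 4 or phlogopite culture 1 the count of calls was 2, and without phlogopite culture 3 it was 3. No share over all tested genes was taken in these fits.

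**Figure D4:**
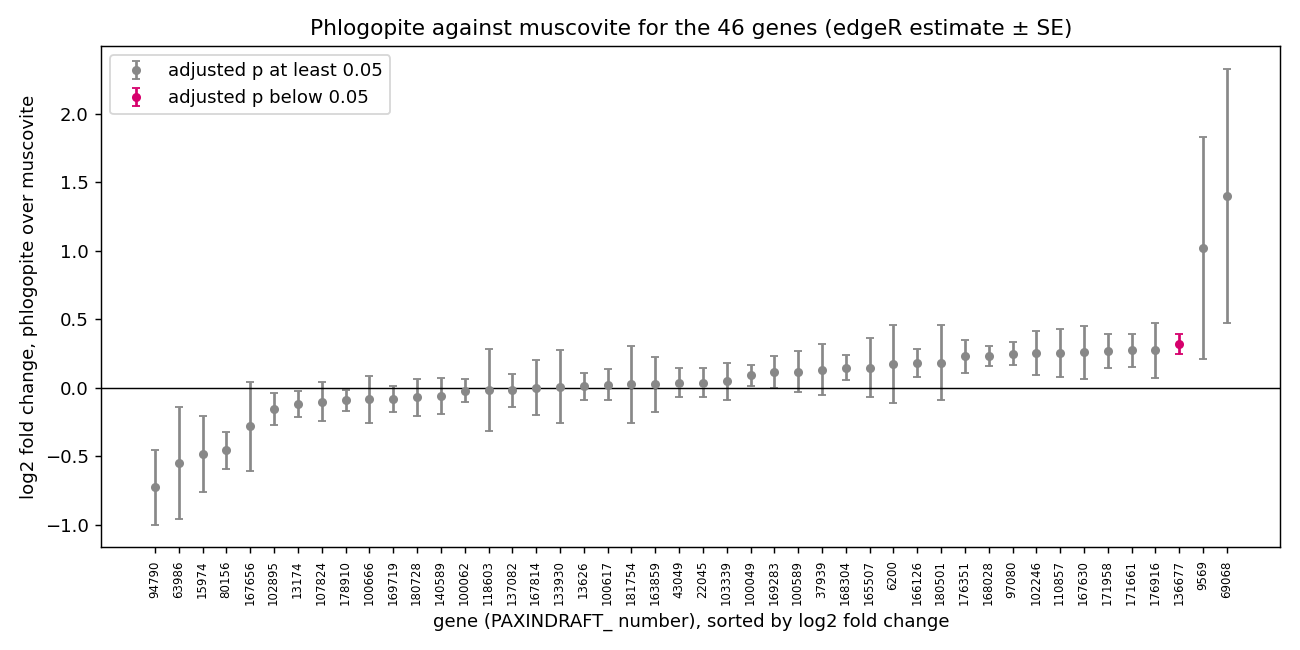
Log2 fold change of phlogopite over muscovite for the 46 genes, from the edgeR fit to all 25 libraries. Bars show the standard error in either direction and are narrower than the 95% intervals given in the text. PAXINDRAFT_136677, at 0.32, is the only gene past the adjusted threshold, and PAXINDRAFT_69068 and PAXINDRAFT_9569 have the longest bars.

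A group of genes varied between replicate cultures more than between some groups. PAXINDRAFT_94790 had 29.03, 24.8, 19.4, 16.1 and 13.7 CPM in the K-vermiculite cultures, compared with 50.3, 50.02, 32.1, 41.5 and 66.8 CPM on complete and 32.7, 49.4, 49.5, 45.4 and 28.8 CPM on K-depleted agar. Its level was 47.5, 53.9, 28.2, 23.9 and 25.4 CPM in phlogopite cultures and 55.5, 72.3, 69.2, 32.7 and 67.8 CPM in muscovite cultures. K-vermiculite culture 1 overlapped with K-depleted culture 5, and phlogopite cultures 3 to 5 lay among the K-vermiculite values. PAXINDRAFT_118603 was at 127, 116, 100.5, 71.2 and 79.3 CPM in K-vermiculite cultures 1 to 5, against 255, 176, 132, 155 and 296 CPM with complete agar and 142, 218, 212, 286 and 115 CPM with K-depleted agar. The phlogopite values were 175, 216, 140.1, 65.7 and 85.2 CPM, and the muscovite values were 146, 124, 157, 131 and 133 CPM. Phlogopite culture 4 lay below all K-vermiculite values and culture 5 among them, cultures 1 and 2 stood well above, and K-vermiculite culture 1 exceeded K-depleted culture 5 and muscovite culture 2. With K-vermiculite, PAXINDRAFT_15974 was at 3.66, 2.14, 2.29, 2.58 and 2.69 CPM in cultures 1 to 5, while complete agar gave 6.70, 4.84, 5.61, 4.81 and 6.73 CPM and K-depleted agar 6.57, 5.66, 5.11, 11.8 and 4.98 CPM. In the micas, values were 5.69, 6.93, 3.70, 2.48 and 2.90 CPM for phlogopite and 5.39, 6.51, 8.23, 3.30 and 7.22 CPM for muscovite. This gene was near the level limit, muscovite culture 4 and phlogopite cultures 4 and 5 fell within the K-vermiculite values, and K-depleted culture 4 was the highest of all. PAXINDRAFT_167656 had 176, 150.2, 108, 93.4 and 74.8 CPM in the K-vermiculite cultures, compared with 190.4, 174, 163, 133 and 265 CPM on complete and 199.7, 278, 246, 687 and 184 CPM on K-depleted agar. For phlogopite the 5 values were 203, 253, 155, 128 and 108 CPM, and for muscovite 239.9, 229, 195, 175 and 192 CPM. The K-vermiculite values of this gene spread widely and overlapped with complete medium, and K-depleted culture 4 stood apart.

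Phlogopite cultures 4 and 5 both lay below phlogopite cultures 1 to 3 for 16 of the 46 genes (34.8%), against 20.9% of the 9449 eligible genes. Replicates spread more for the 46 genes than for the eligible genes in every group. The median coefficient of variation was 10.8% with K-vermiculite, 12.6% with phlogopite and 13.1% with muscovite, against 6.89%, 8.88% and 8.63% for the eligible genes. It was 12.8% on complete medium and 18.8% on K-depleted medium, against 7.72% and 8.49%, and the choice itself favours genes with a high control culture. Over the 10 mica cultures, which the choice did not use, the median Pearson correlation of log2 CPM between pairs of the 46 genes was 0.262, and 0.051 between the eligible genes. Over the 5 K-vermiculite cultures it was 0.109, and 0.084 between the eligible genes. The pairs share the same libraries, and the values are descriptions.

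On K-depleted medium, 1 culture set the level of several genes. Culture 4 was the highest of its group for 29 of the 46 genes (63%), against 21.8% of the eligible genes, and it was at least 2 times the next culture for 9 genes (19.6%), against 0.529%. Culture 5 was the lowest for 31 genes (67.4%), against 20.7%. Since the choice takes genes with high control means, it favours genes that 1 control culture raised. With culture 4 left out, the same rule gave 41 genes, of which 37 were among the 46, and 9 of the 46 were lost. Without each of the 15 libraries of the rule in turn, 27 genes always kept their place and 19 lost it at least once.

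PAXINDRAFT_9569 was at 4.81, 3.71, 3.61, 6.42 and 3.45 CPM in K-vermiculite cultures 1 to 5, against 13.7, 8.15, 27.8, 9.94 and 15.7 CPM with complete agar and 4.01, 3.61, 5.43, 82.8 and 15.3 CPM with K-depleted agar. Phlogopite cultures had 4.13, 4.22, 10.1, 23.9 and 36.00 CPM and muscovite cultures 3.38, 4.55, 20.6, 5.34 and 4.89 CPM. K-depleted culture 4 was 5.42 times the next culture of its group, and K-depleted cultures 1 to 3 lay within the K-vermiculite values. Without culture 4 the K-vermiculite ratio to the lower control was 0.647 in place of 0.315, and the control means were no longer within a factor of 2. With K-vermiculite, PAXINDRAFT_69068 was at 4.88, 4.48, 3.00, 4.99 and 2.55 CPM in cultures 1 to 5, while complete agar gave 10.1, 5.48, 21.9, 7.53 and 25.5 CPM and K-depleted agar 1.37, 1.12, 1.76, 38.8 and 5.64 CPM. With phlogopite it was at 1.99, 0.922, 4.95, 17.4 and 30.9 CPM, and with muscovite at 2.69, 2.23, 9.07, 4.82 and 2.41 CPM. K-depleted cultures 1, 2 and 3 were below every K-vermiculite culture, so the values of this gene go against a reading of it as lowered past K-depleted medium. Without culture 4 its ratio to the lower control was 1.51 in place of 0.437. The others lost without culture 4 were PAXINDRAFT_6200 at a ratio of 0.946, PAXINDRAFT_181754 at 0.907, PAXINDRAFT_133930 at 0.878, PAXINDRAFT_37939 at 0.723, PAXINDRAFT_110857 at 0.718, PAXINDRAFT_43049 at 0.685 and PAXINDRAFT_137082 at 0.676. Of these, PAXINDRAFT_181754, PAXINDRAFT_133930, PAXINDRAFT_37939, PAXINDRAFT_43049 and PAXINDRAFT_137082 were named after their values were seen.

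**Figure D5:**
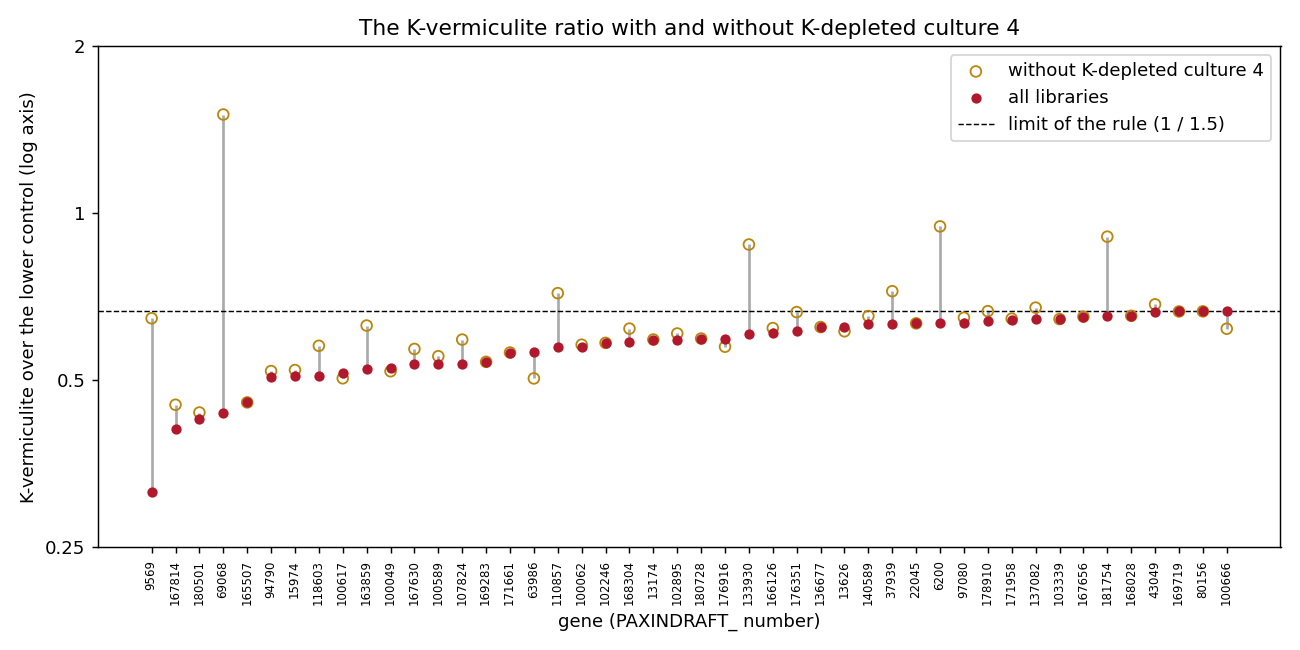
K-vermiculite level relative to the lower control mean (CPM plus 0.5, ratio on a log axis) for the 46 genes with all libraries and without K-depleted culture 4. Without it, 8 genes lie above the limit (dashed line), with PAXINDRAFT_69068 at 1.51, and PAXINDRAFT_9569 leaves through its control means, while PAXINDRAFT_167814, at 0.452, and PAXINDRAFT_165507, at 0.456, remain low.

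PAXINDRAFT_9569 has the lowest ratio of the 46, and over all 25 libraries the 3 tested genes most like it in log2 CPM were PAXINDRAFT_113967 (Pearson r 0.932), PAXINDRAFT_179433 (0.907) and PAXINDRAFT_69068 (0.905), of which the last is among the 46. All share the high K-depleted culture 4. PAXINDRAFT_113967 was at 11.9 CPM in that culture and averaged 0.220 CPM with K-vermiculite, and PAXINDRAFT_179433 was at 14.3 CPM there and averaged 0.682 CPM with K-vermiculite. Among the 46, the next were PAXINDRAFT_181754 at 0.799 and PAXINDRAFT_163859 at 0.782. The lowest ratios that held without culture 4 were those of PAXINDRAFT_180501 at 0.437, PAXINDRAFT_167814 at 0.452 and PAXINDRAFT_165507 at 0.456.

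By the order of genes in the reference, 4 of the 46 were next to another of them, as 2 pairs. How often so many tested genes would be neighbours was not examined. PAXINDRAFT_100617 and PAXINDRAFT_13626 are neighbours, and both were lowest with K-vermiculite, but PAXINDRAFT_13626 was highest on complete medium and PAXINDRAFT_100617 had overlapping values on both controls, as given above. The other pair is PAXINDRAFT_100049 and PAXINDRAFT_169719. PAXINDRAFT_100049 had 18.5, 17.4, 17.00, 16.4 and 19.2 CPM in the K-vermiculite cultures, compared with 45.3, 42.01, 45.9, 44.5 and 35.8 CPM on complete and 37.3, 35.1, 33.03, 32.3 and 32.99 CPM on K-depleted agar. Its level was 31.9, 29.7, 36.00, 35.8 and 35.9 CPM in phlogopite cultures and 29.2, 32.2, 34.7, 31.9 and 31.97 CPM in muscovite cultures. Mica values stood well above all K-vermiculite values and mostly below complete medium, with a fall against complete medium called with muscovite (log2 change -0.30 with SE 0.074, edgeR adjusted p 0.00102) and with phlogopite (log2 change -0.20 with SE 0.074, edgeR adjusted p 0.0166, lost without phlogopite culture 2 or complete-medium culture 3 at 0.0683 and 0.0525). PAXINDRAFT_169719 was at 8.50, 8.45, 9.52, 9.13 and 9.17 CPM in K-vermiculite cultures 1 to 5, against 16.3, 14.3, 11.5, 11.6 and 14.9 CPM with complete agar and 20.2, 19.04, 18.2, 19.4 and 15.01 CPM with K-depleted agar. The phlogopite values were 18.98, 16.5, 17.97, 13.4 and 16.04 CPM, and the muscovite values were 16.3, 17.6, 18.8, 18.5 and 16.8 CPM. Its K-vermiculite values were also the lowest, but the micas were higher than complete medium (muscovite log2 change 0.48 with SE 0.10, edgeR adjusted p 9.99e-05, phlogopite log2 change 0.40 with SE 0.10, edgeR adjusted p 0.00071). So PAXINDRAFT_100049 and PAXINDRAFT_169719 shared the low level with K-vermiculite, by which they were chosen, and with the micas differed in direction against complete medium.

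Of the 46 genes, 4 (8.70%) overlap a neighbouring gene in the reference, against 8.89% of tested genes, and whether counting used the strand is not given in the sources used here. PAXINDRAFT_9569 is among them. PAXINDRAFT_63986, another, averaged 12.3 ± 2.54 CPM with K-vermiculite, 29.7 ± 3.61 CPM with complete agar and 22.3 ± 18.6 CPM with K-depleted agar (SD, n = 5 each), with K-depleted values from 5.64 to 53.6 CPM that span those with K-vermiculite, and it was named after its values were seen. Over the 4 comparisons of a mica with a control, 24 of the 46 genes were called in none, against 24.6% of tested genes, and the choice keeps genes with close control means. PAXINDRAFT_167814 alone was called lower against K-depleted medium with both micas, against 0.494% of tested genes. Muscovite was called lower than both controls for 2 genes, PAXINDRAFT_167814 and PAXINDRAFT_168028, against 0.479% of tested genes. Phlogopite was called so for 3, PAXINDRAFT_167814, PAXINDRAFT_80156 and PAXINDRAFT_178910, against 1.51%. The control libraries in these comparisons had served in the choice, so the counts are not independent of it.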

How the data were processed

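RNA was measured in 25 mycelium cultures in 5 groups of 5. The authors deposited raw counts (whole numbers) for each gene and culture, from TruSeq Stranded mRNA libraries per the labels' protocols. The tools bcl2fastq 2.19, STAR 2.5.2b and HTSeq are listed per the submitters' processing notes. For the genome build, the annotation and the strand setting, the sources used here give nothing. Reads shared between near-identical gene copies could not be examined. Each column was matched to its culture by the labels, and all 25 were used.

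CPM was computed from the deposited counts and column totals, with an offset of 0.5 CPM in the ratios of group means. Counts were tested in R 4.3.3 with edgeR 4.0.16: filterByExpr (minimum count 10, minimum total 15) kept 12744 of 18032 genes, libraries were scaled by TMM (factors 0.945 to 1.08), and a quasi-likelihood model with robust estimation and a term for each group was fitted to the 25 libraries together. The common coefficient of biological variation came to 11.9%. A call is a Benjamini-Hochberg adjusted p below 0.05 within a contrast. The standard error is the absolute log2 fold change divided by the square root of F, and 95% intervals use it with a normal approximation. Library totals were 21035680 to 41217502 counts. The chi-square per degree of freedom between replicates was at least 10.6, so no library was treated as a repeat of another. The p-values measure the spread between these cultures. DESeq2 1.42.0 and other settings served as alternatives.

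The members and lists were chosen with earlier results of these data known. K-vermiculite and both controls chose the genes, so no test is given among them or for K-vermiculite against a mica. Named are the 12 genes with the lowest ratio, the 6 with the highest control level, those called between the micas, the 3 highest and 3 lowest called in each mica comparison with a control, those at the limit, neighbours of each other, and the 3 genes most like the lowest; others are marked as named after their values were seen. All 46 genes matched the reference annotation by identifier. Its coordinates are of an assembly not known to be that of the counts, so it was used only for biotype, gene order and overlap of neighbouring genes. Consecutive genes with rising start positions were taken to lie on the same stretch of the assembly. Sequences and product names were not used here.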

Additional observations from a re-analysis of the deposited data

Results flagged for a closer look

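Values were examined in 140 groups of 5 cultures, for 28 genes in each of the 5 groups, and a culture was singled out where its gap to the nearest other culture exceeded 0.71 of the range of its group. Chance alone flags about 1 in 20 such groups, and 16 were found. Of these, 9 were high values in K-depleted culture 4, which the rule for choosing the genes favours: PAXINDRAFT_9569 at 82.8 CPM, PAXINDRAFT_167814 at 163 CPM, PAXINDRAFT_69068 at 38.8 CPM, PAXINDRAFT_15974 at 11.8 CPM, PAXINDRAFT_163859 at 121 CPM, PAXINDRAFT_167630 at 284 CPM, PAXINDRAFT_6200 at 126 CPM, PAXINDRAFT_110857 at 211 CPM and PAXINDRAFT_167656 at 687 CPM. On the same medium, PAXINDRAFT_80156 was low in culture 5, at 58.0 CPM. Muscovite culture 3 was high for PAXINDRAFT_9569, at 20.6 CPM, and for PAXINDRAFT_163859, at 79.9 CPM. Phlogopite culture 2 was high for PAXINDRAFT_167814, at 63.7 CPM, and phlogopite culture 4 for PAXINDRAFT_171958, at 584 CPM. PAXINDRAFT_6200 was high in complete-medium culture 3, at 81.1 CPM, and PAXINDRAFT_13626 in K-vermiculite culture 4, at 9.88 CPM.

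The micas differed for PAXINDRAFT_136677, by a log2 fold change of 0.32 for phlogopite over muscovite in the edgeR test. The cause of these values was not tested.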

How the results depend on the processing

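The rule gave 5 genes at a fold of 2, and 41 to 54 without single libraries. With TMM scaling it gave 40 genes, 37 of them among the 46, and with group medians 43, of which 36 were among the 46. K-depleted cultures 4 and 5 and phlogopite cultures 4 and 5 were each left out together as settings chosen after seeing the data. The counts of calls that follow are of the 46 genes, and no share over all tested genes was taken in the alternative settings. Between the micas the main count of 1 became 2 with a replicate block, 3 with DESeq2 and 0 with the 2 groups alone (10 at an unadjusted p below 0.05 in edgeR), and it ranged from 1 to 3 without single libraries. For muscovite against K-depleted medium the 5 calls became 3 with no filter, 1 with the 2 groups alone, 11 with DESeq2, 3 without K-depleted cultures 4 and 5, and 1 to 10 without single libraries. For phlogopite against K-depleted medium the 3 calls became 5 with a replicate block (4 lower, 1 higher), 6 without K-depleted cultures 4 and 5, and 0 to 8 without single libraries. They became 0 with the 2 groups alone (10 at an unadjusted p below 0.05 in edgeR) and 0 without phlogopite cultures 4 and 5 (8 at an unadjusted p below 0.05 in edgeR). Against complete medium the 18 muscovite calls ran from 16 to 19 without single libraries and became 24 with library totals (20 lower, 4 higher) and 23 with the 2 groups alone. The 17 phlogopite calls ran from 13 to 17 without single libraries and became 20 in each of those settings. Leaving out cultures or groups removes degrees of freedom by construction, yet some counts fell and others rose, and the cause of these shifts was not tested. Of 34 named calls, 21 held in every setting run, 13 were lost in at least 1, and 0 reversed.

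The labels give the replicate numbers no shared origin, and they were treated as names. Correlations of same-numbered deviations ran from -0.291 to 0.454, with 19 of 50 over 0.1, and for no pair of groups were all 5 over 0.1. They were over 0.1 for 4 of 5 numbers between phlogopite and muscovite (culture 5 at -0.193) and between phlogopite and K-depleted medium (culture 3 at 0.0823). In the tested comparisons 17 of 50 matches placed a library nearest its own number, where numbers at random give 10, and 6 of 10 did so for phlogopite with K-depleted medium, so a partial pairing was not excluded. Counts at the lowest levels, down to 29 in a library, limit the precision of the rarest genes.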
